A study of Homo sapiens with 9 samples.

Results

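The cadherin and protocadherin genes of MDA-MB-231 breast cancer cells were described here, defined as every gene of the deposited count table whose symbol consists of CDH or PCDH followed by letters and digits. This gave 105 of the 58884 genes in the table, of which 40 had 50 or more counts over the 9 libraries and are called expressed below, and 65 did not. The expressed genes comprised 4 of 5 type I classical cadherins, 4 of 13 type II classical cadherins, 1 of 5 atypical cadherins, 3 of 5 cadherin-related genes, 3 of 5 delta-1, 2 of 5 delta-2 and 1 of 3 other non-clustered protocadherins, 0 of 15 alpha, 10 of 16 beta and 12 of 22 gamma clustered protocadherins, and 0 of 11 pseudogenes. PCDHGB6 and CDH23 with 60 counts and CDH12 with 67 stood just inside the limit of 50, and PCDHB6 with 49 and CDH10 with 47 just outside it. RNA-seq had been carried out on the parental line MDA-MB-231 (Par), a human mammary line grown in monolayer, and on the sub-populations LM2 and BrM2, which had been selected from it in mice for growth in the lung and in the brain respectively. The labels name no engineered allele and no agent for any of the lines, which were grown in the same medium with serum and antibiotics. Each sub-population is a selected population of 1 parental line, so that a difference between lines is a difference between these 3 cell populations. Each line had 3 replicates, harvested at different passages, and p-values therefore measure the spread between passages of the same line.

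Classical cadherins are single-pass membrane proteins that bind a cadherin of the same kind on the neighbouring cell and tie it through catenins to the actin cytoskeleton. Type I members such as E-cadherin (CDH1) and N-cadherin (CDH2) form strong junctions, and loss of E-cadherin together with gain of a mesenchymal cadherin is a textbook feature of the epithelial-mesenchymal transition. Type II members are expressed mainly by mesenchymal, neural and endothelial cells. Protocadherins lack the catenin-binding tail, and those of the alpha, beta and gamma clusters lie in tandem on human chromosome 5, where each variable first exon has its own promoter and is chosen through CTCF and cohesin, giving nerve cells a recognition code. MDA-MB-231 is known as a mesenchymal-like line that lacks E-cadherin protein.

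Counts on genes ranged from 14371858 to 24511786 per library. The libraries of the same replicate number deviated together from their lines' means, with correlations across genes of 0.23 to 0.90 in all 9 pairs. Pairs of libraries with different numbers ranged from -0.88 to 0.80, and BrM2 replicate 2 correlated more with Par replicate 3 (0.77) than with Par replicate 2 (0.23), so that number 1 stood apart from the others more than numbers 2 and 3 did from each other. Values with the replicate number as a block are given where they changed the call of a tested member. Of the markers of other cell types, the 5 leukocyte markers summed to 0 to 0.525 CPM (counts scaled to a common library size with TMM factors) in any library. The 6 endothelial markers summed to 6.92 to 13.3 CPM, and the endothelial cadherin CDH5 had 0 to 4 counts in every library. The 5 mesenchymal markers summed to 1570 to 1840 CPM in Par, 2630 to 3060 in LM2 and 1610 to 2160 in BrM2. Of these, VIM, encoding vimentin, was at 722 ± 137 CPM (SD, n = 3) in Par, 1533 ± 294 in LM2 and 1497 ± 290.5 in BrM2. FN1 went the other way in BrM2, at 883 ± 139 CPM in Par, 1128 ± 18.5 in LM2 and 289 ± 16.8 in BrM2. ZEB1, SNAI2 and CDH2 had their lowest means in BrM2 too. The 9 epithelial markers were not absent and summed to 613 to 2110 CPM. The 5 fibroblast markers summed to 55.3 to 72.8 CPM in Par, 45.0 to 70.6 in LM2 and 10.6 to 21.7 in BrM2, and the 6 neural or glial markers to 176 to 195, 112 to 123 and 144 to 155 CPM. The part of these markers in the results below was not tested. In bulk RNA, fewer cells expressing a gene and less RNA per cell cannot be told apart.

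The family as a whole took a similar amount of RNA in the 3 lines, but its make-up differed. All 105 genes together had 284 to 318 CPM in the Par libraries, 267 to 328 in LM2 and 241 to 337 in BrM2, so that the lines overlapped. CDH11 was the largest member in Par, with 32.1% to 39.6% of the family's counts, but held 3.11% to 6.11% in LM2 and 13.5% to 26.0% in BrM2. CDH4 held 15.7% to 23.1% in Par, 47.8% to 62.3% in LM2 and 40.0% to 63.6% in BrM2. Thus the type I cadherins summed to 59.4 ± 11.2 CPM in Par, 163 ± 40.8 in LM2 and 145 ± 62.2 in BrM2, and the type II cadherins to 139 ± 18.7, 32.7 ± 3.00 and 92.6 ± 13.6 CPM. Per kilobase of exon, CDH11, CDH24 and CDH4 stood close together in Par at 8.38, 7.98 and 7.63 CPM per kilobase. In LM2 the same 3 genes had 1.08, 4.87 and 21.2 CPM per kilobase, and in BrM2 4.53, 5.52 and 19.2, which placed CDH4 first in both sub-populations. The lengths taken were 13021, 3748 and 7514 bases, over all annotated exons of a gene that belong to no other gene. The order per kilobase depends on this choice of length, and no other length was tried.

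**Figure D1:**
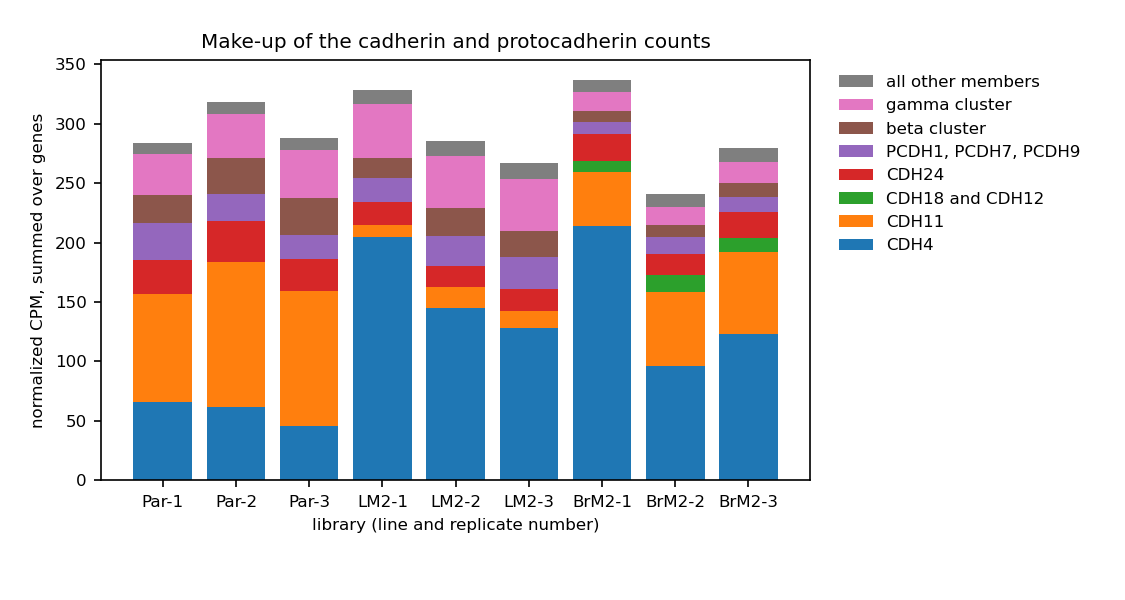
Normalized CPM summed over genes (vertical axis) for each of the 9 libraries (horizontal axis, line and replicate number), stacked by member or cluster, with 1 library per bar and no error bars. CDH11 is the largest segment in the Par libraries, CDH4 in all LM2 and BrM2 libraries, and the height of the bars overlaps between lines.

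A total of 20 members passed the filter on low counts and were tested among 13055 genes with edgeR's quasi-likelihood test and Benjamini-Hochberg adjustment, at an adjusted p of 0.05. In LM2 against Par, 5 of the 20 were called (3 higher, 2 lower), where 8.69% of all tested genes were called (4.17% higher, 4.52% lower). In BrM2 against Par, 11 of 20 were called (2 higher, 9 lower), against 13.3% of all tested genes (6.25% higher, 7.02% lower). In BrM2 against LM2, 10 of 20 were called (2 higher, 8 lower), against 8.1% of all tested genes (4.11% higher, 3.99% lower). With the replicate block, 14 of 20 were called in each comparison, beside 34.5%, 42.7% and 37.5% of all genes. The CPM of the libraries did not overlap between lines for 11, 14 and 13 of the 20, against 25.2%, 31.3% and 23.1% of all tested genes. These counts are descriptions of unequal weight, because 6 of the 20 (PCDH1, CDH18, PCDHB11, PCDH18, CDH3 and PCDHGA5) exceeded the filter's threshold in 1 line only, and so had to differ to be tested. A further 5 (PCDHB14, PCDHGA4, CDHR3, PCDHB10 and PCDHGA6) exceeded it in Par and LM2 and not in BrM2. These could be tested only through lines in which some library was above all BrM2 libraries, which favours lower calls in BrM2. The LM2 and BrM2 comparisons with Par share the same 3 Par libraries. Of the other 20 expressed members, 17 could be tested with the more permissive filterByExpr filter (15864 genes, of which 8.3%, 13.2% and 8.14% were called), and 1, 5 and 3 of these 17 were called in the 3 comparisons. A member near 0 in some lines could pass this filter only through the others, as CDH12 did through BrM2. CDH23, PCDHGB6 and PCDHGA10 were too low for either filter.

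**Figure D2:**
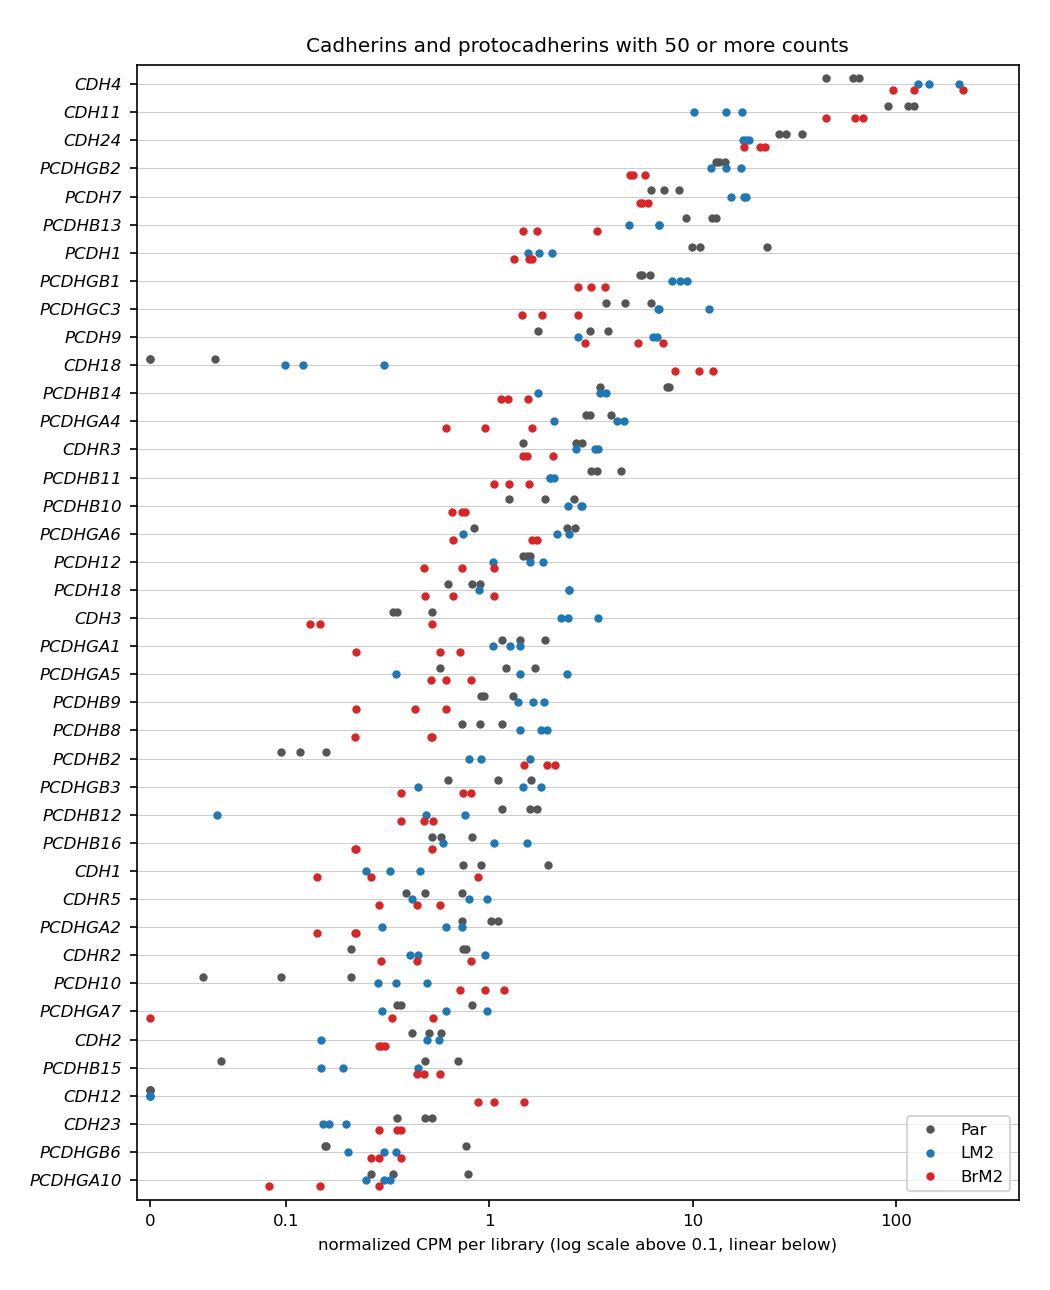
Normalized CPM of the 40 expressed members in each library (horizontal axis, log scale above 0.1 and linear below it), 1 point per library, coloured by line and ordered by mean level. CDH4, CDH11 and CDH24 have the highest mean CPM over the 9 libraries, CDH18 and CDH12 have BrM2 points far from those of Par and LM2, and most clustered protocadherins have their BrM2 points on the left.

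**Figure D3:**
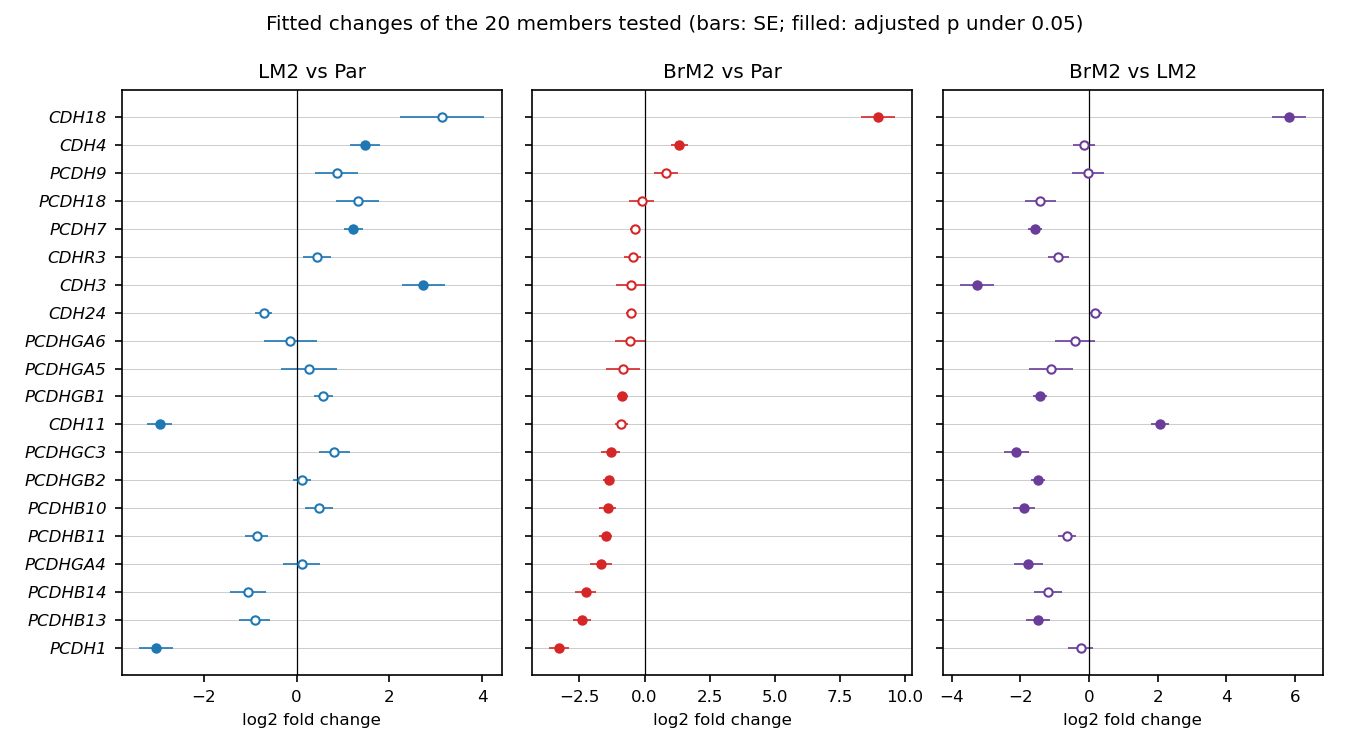
Fitted log2 fold changes from edgeR (horizontal axis, bars are standard errors) of the 20 tested members in the 3 comparisons, with filled points for an adjusted p under 0.05. In LM2 against Par filled points lie on both sides of 0, whereas in BrM2 against Par 9 of the 11 lie below 0.

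CDH4, which encodes R-cadherin, a type I cadherin first known from the retina, was the highest member per kilobase in LM2 and BrM2. In Par it was below CDH11 and CDH24 per kilobase, but above CDH24 in CPM (57.3 and 29.9). It lies on chromosome 20 (chr20:61252261-61940617, GRCh38.p14). Its counts were 1252, 1268 and 1154 in Par, 4129, 3563 and 3345 in LM2, and 2909, 2186 and 2572 in BrM2. All 6 LM2 and BrM2 libraries were above all Par libraries, and the LM2 and BrM2 libraries overlapped. Levels were 57.3 ± 10.7 CPM in Par, 159 ± 40.4 in LM2 and 144 ± 61.9 in BrM2. CDH4 rose by a log2 fold change of 1.47 in LM2 (SE 0.33, adjusted p = 0.0255, edgeR) and of 1.33 in BrM2 (SE 0.33, adjusted p = 0.028, edgeR). Between libraries of the same replicate number, the LM2 to Par ratios were 3.12, 2.37 and 2.83, and the BrM2 to Par ratios 3.27, 1.57 and 2.72. The LM2 call was lost in edgeR without any of LM2 replicates 1 and 2 and the 3 Par libraries (adjusted p of 0.0527 to 0.103), and the BrM2 call without any of BrM2 replicates 1 and 3 and the 3 Par libraries (adjusted p of 0.0579 to 0.112). BrM2 and LM2 differed by a log2 fold change of -0.14 (SE 0.32, adjusted p = 0.874, edgeR).

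A window of CDH4 is printed because this gene carries the largest share of the family's RNA in both sub-populations. RefSeq windows of the 250 bases before a start site (GRCh38.p14) were found for 74 of the 105 members and 33 of the 40 expressed ones. They were searched on both strands for the E-box CAGGTG, the sequence bound by the SNAI and ZEB repressors, which 17.5% of all 35116 windows held. A match was found in 9 of the 95 windows of the family (9.47%), among them 1 of the 2 windows listed for CDH4 and the only window of PCDH1, which fell in both sub-populations as described below. The windows printed for CDH4 and PCDH1 each lie before a start inside the gene. That of CDH4 was chosen from the 2 listed because it holds a match. The E-box is in capitals.
CDH4 (chr20:61499171-61499420, plus strand): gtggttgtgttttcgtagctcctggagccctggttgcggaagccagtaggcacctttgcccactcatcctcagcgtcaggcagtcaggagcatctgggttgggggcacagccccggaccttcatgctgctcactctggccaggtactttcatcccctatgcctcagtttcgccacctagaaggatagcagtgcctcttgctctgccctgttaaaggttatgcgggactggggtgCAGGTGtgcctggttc
PCDH1 (chr5:141869628-141869877, minus strand): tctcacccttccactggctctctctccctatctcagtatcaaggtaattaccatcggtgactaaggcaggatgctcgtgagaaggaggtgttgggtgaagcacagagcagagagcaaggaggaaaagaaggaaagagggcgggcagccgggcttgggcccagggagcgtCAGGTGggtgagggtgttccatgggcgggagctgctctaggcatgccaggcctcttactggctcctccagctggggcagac

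CDH3, which encodes P-cadherin of basal epithelial cells, was higher in LM2 alone among the 3 lines. It had 10, 7 and 9 counts in Par, 69, 60 and 59 in LM2, and 2, 3 and 11 in BrM2. The LM2 libraries did not overlap with those of either other line, whereas those of Par and BrM2 overlapped. The mean level was 0.405 ± 0.104 CPM in Par, 2.7 ± 0.627 in LM2 and 0.268 ± 0.223 in BrM2. The log2 fold change was 2.73 in LM2 against Par (SE 0.47, adjusted p = 0.00702, edgeR) and -3.26 in BrM2 against LM2 (SE 0.50, adjusted p = 0.0041, edgeR). Both calls held when any single library was left out, and without BrM2 replicate 3 the second value was -4.23. CDH3 exceeded the filter's threshold in LM2 only, and so had to be high there to be tested.

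E-cadherin and N-cadherin RNA was low in all lines, with means of at most 1.20 CPM. CDH1 had 37, 19 and 19 counts in Par, 5, 8 and 12 in LM2, and 12, 6 and 3 in BrM2, which corresponds to 1.20 ± 0.646, 0.344 ± 0.106 and 0.430 ± 0.397 CPM. The LM2 libraries were below those of Par, and the BrM2 libraries overlapped with them. With filterByExpr, the log2 fold change of CDH1 was -1.74 in LM2 (SE 0.62, adjusted p = 0.141, edgeR) and -1.55 in BrM2 (SE 0.64, adjusted p = 0.169, edgeR), neither past the threshold. CDH2 had 8, 12 and 13 counts in Par, 3, 14 and 13 in LM2, and 4, 7 and 6 in BrM2, with means between 0.296 and 0.502 CPM. Its log2 fold changes were -0.27 in LM2 (SE 0.44, adjusted p = 0.832) and -0.73 in BrM2 (SE 0.47, adjusted p = 0.407) in edgeR with filterByExpr. Of the type I members, CDH15, the muscle cadherin, had 0 to 4 counts per library. Per kilobase of exon, CDH2 was at 0.0585 CPM in Par, 0.0472 in LM2 and 0.0345 in BrM2, and CDH1 at 0.197, 0.0566 and 0.0708, all far under the values of CDH4 given above.

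CDH11, which encodes OB-cadherin of osteoblasts and mesenchymal cells, was the highest type II cadherin per kilobase in Par and was below CDH24 per kilobase in LM2 and BrM2 (chr16:64943753-65123744). In CPM it was below CDH24 in LM2 (14.1 and 18.3) and above it in BrM2 (59.0 and 20.7). Its counts were 1737, 2536 and 2912 in Par, 206, 429 and 383 in LM2, and 618, 1421 and 1444 in BrM2. The lines formed 3 separate levels with no overlap of CPM, at 109 ± 16.2 in Par, 59.0 ± 12.1 in BrM2 and 14.1 ± 3.65 in LM2. CDH11 fell by 2.95 on the log2 scale in LM2 against Par (SE 0.27, adjusted p = 0.000365, edgeR), and the ratio of Par to LM2 within a replicate number was 8.91, 7.01 and 7.8. BrM2 was above LM2 by a log2 fold change of 2.07 (SE 0.27, adjusted p = 0.00181, edgeR). In BrM2 against Par the log2 fold change of -0.89 missed the threshold (SE 0.26, adjusted p = 0.0534, edgeR), and it passed with the replicate block (adjusted p = 0.000196). It passed too with DESeq2 (adjusted p = 0.00715), and in edgeR with filterByExpr (adjusted p = 0.0492) or without LM2 replicate 1 (adjusted p = 0.0246). With no filter it missed (adjusted p = 0.0798, edgeR).

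CDH24, another type II cadherin, had 548, 713 and 679 counts in Par, 381, 433 and 479 in LM2, and 308, 407 and 449 in BrM2. Its levels of 29.9 ± 4.03, 18.3 ± 0.639 and 20.7 ± 2.48 CPM did not overlap between Par and either sub-population. The log2 fold changes of -0.71 in LM2 (SE 0.19, adjusted p = 0.0501, edgeR) and -0.53 in BrM2 (SE 0.19, adjusted p = 0.108, edgeR) missed the threshold. Both passed with the replicate block (adjusted p = 0.0042 and 0.0149, edgeR) and with DESeq2 (adjusted p = 0.00311 and 0.0374).

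Several type II cadherins of the nervous system were seen in BrM2 and hardly elsewhere. CDH18 had 111, 287 and 226 counts in BrM2, 2, 3 and 8 in LM2, and 0, 1 and 0 in Par. The summed, depth-corrected counts of BrM2 were 713 times those of Par, with a 95% counting interval of 127 to 28200 that covers counting error only. Against LM2 the log2 fold change was 5.82 (SE 0.50, adjusted p = 0.000249, edgeR), and 6.49 without LM2 replicate 3. The filter's threshold was exceeded in BrM2 only, so that CDH18 had to be high there to be tested. CDH18 in LM2 against Par, at 13 counts against 1, was not called in edgeR (adjusted p = 0.0717) or with filterByExpr (adjusted p = 0.0658, edgeR). It was called with the replicate block (adjusted p = 0.0241, edgeR), with DESeq2 (adjusted p = 0.0483) and with no filter (adjusted p = 0.0436, edgeR). CDH12, its neighbour on chromosome 5, had 12, 24 and 31 counts in BrM2 and 0 in all 6 other libraries. Taking a floor of 3 counts over the 3 libraries of a line, CDH12 was at least 25.5-fold higher in BrM2 than in Par and at least 27.7-fold higher than in LM2 (adjusted p = 0.0042 and 0.00585 in edgeR with filterByExpr). With 0 counts elsewhere, CDH12 could pass that filter through BrM2 only, and so had to be high there to be tested. CDH10 of the same chromosome arm had 1, 23 and 23 counts in BrM2 and 0 in all Par and LM2 libraries, at least 17.9-fold and 19.4-fold higher. BrM2 replicate 1 was near 0 for CDH10 and not for CDH18 or CDH12. Of the other type II genes, CDH8 had 0, 3 and 3 and CDH7 0, 2 and 2 counts in BrM2, both with 0 in Par and LM2. CDH20 had 12 counts in Par, 1 in LM2 and 11 in BrM2, a Par to LM2 ratio of 13.0 with a 95% counting interval of 1.93 to 557. The remaining type II genes CDH5, CDH6, CDH9, CDH19 and CDH22 had at most 4 counts in any library.

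CDH18 and CDH12 are shown with the windows before their most upstream listed start, as the members closest to an on and off pattern between lines. Neither window held the E-box, nor did the other 2 windows listed for each gene, so no letter is in capitals.
CDH18 (chr5:20575714-20575963, minus strand): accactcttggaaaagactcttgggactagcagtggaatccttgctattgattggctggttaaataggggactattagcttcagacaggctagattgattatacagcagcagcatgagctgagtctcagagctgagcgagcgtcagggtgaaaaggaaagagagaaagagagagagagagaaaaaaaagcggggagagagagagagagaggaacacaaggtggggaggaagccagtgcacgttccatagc
CDH12 (chr5:22853345-22853594, minus strand): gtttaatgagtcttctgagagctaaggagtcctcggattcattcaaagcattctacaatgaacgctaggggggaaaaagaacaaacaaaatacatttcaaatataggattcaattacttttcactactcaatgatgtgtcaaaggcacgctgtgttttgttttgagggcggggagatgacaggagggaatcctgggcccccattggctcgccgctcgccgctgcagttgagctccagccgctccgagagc
The 10 tested genes other than members within 5 Mb of CDH18 had a median log2 fold change of 0.25 in BrM2 against Par, with 2 called higher and 1 lower. The 4 such genes near CDH12 had a median of 0.38, with 1 called higher, and the 4 near CDH10 a median of 3.15, with 2 called higher. Against LM2 the medians were 0.48, 0.61 and 1.09, with 2, 2 and 1 called higher. The parts of the chromosome behind these values overlap.

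Among the non-clustered protocadherins, PCDH1 fell in both sub-populations. PCDH1, a delta-1 protocadherin known from airway epithelium (chr5:141853090-141878410), had 441, 225 and 255 counts in Par, 41, 38 and 46 in LM2, and 22, 30 and 33 in BrM2. All Par libraries were far above all others, and those of LM2 and BrM2 overlapped. Mean levels were 14.6 ± 7.34 CPM in Par, 1.78 ± 0.244 in LM2 and 1.51 ± 0.162 in BrM2. PCDH1 fell by 3.04 on the log2 scale in LM2 (SE 0.36, adjusted p = 0.00116, edgeR) and by 3.28 in BrM2 (SE 0.37, adjusted p = 0.000623, edgeR). Par replicate 1 was the highest, and the ratio of Par to LM2 was 11.4, 7.02 and 5.69 in replicate numbers 1, 2 and 3. Both calls held when any single library was left out, and BrM2 and LM2 differed by -0.24 (SE 0.36, adjusted p = 0.795, edgeR). PCDH1 exceeded the filter's threshold in Par only, and so had to be high there to be tested. The window of PCDH1 was printed beside that of CDH4, whose RNA moved in the opposite direction.

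PCDH7, another delta-1 protocadherin, rose in LM2 and not in BrM2. It had 119, 178 and 184 counts in Par, 312, 438 and 478 in LM2, and 75, 137 and 118 in BrM2. The LM2 libraries were above all others, at 17.2 ± 1.5 CPM beside 7.34 ± 1.18 in Par and 5.73 ± 0.265 in BrM2. The log2 fold change was 1.23 in LM2 against Par (SE 0.20, adjusted p = 0.00577, edgeR), -0.36 in BrM2 against Par (SE 0.20, adjusted p = 0.332, edgeR) and -1.58 in BrM2 against LM2 (SE 0.20, adjusted p = 0.00181, edgeR). PCDH9, the third delta-1 member expressed, had 33 to 80 counts in Par, 55 to 176 in LM2 and 40 to 163 in BrM2, with overlap between all lines. Within a replicate number it was higher than in Par by 1.58, 1.67 and 2.14 times in LM2 and by 1.7, 1.86 and 1.72 times in BrM2. Accordingly it was called with the replicate block (adjusted p = 0.0056 and 0.00567) and not in edgeR without it (adjusted p = 0.362 and 0.325).

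The delta-2 protocadherins were low and differed in pattern. PCDH18 had 12 to 23 counts in Par, 18 to 65 in LM2 and 9 to 22 in BrM2, and its log2 fold change of 1.31 in LM2 (SE 0.45, adjusted p = 0.128, edgeR) passed with the replicate block (adjusted p = 0.0147) and without LM2 replicate 1 (adjusted p = 0.0239). In BrM2 against LM2 its value of -1.41 (SE 0.46, adjusted p = 0.113, edgeR) likewise passed with the block (adjusted p = 0.0102), and with DESeq2 (adjusted p = 0.0452). PCDH18 exceeded the filter's threshold in LM2 only, and so had to be high there to be tested. PCDH10, studied as a tumour suppressor gene silenced by methylation, had 4, 2 and 1 counts in Par, 7, 7 and 13 in LM2, and 13, 27 and 15 in BrM2, with no overlap between any of the lines in CPM. In edgeR with filterByExpr it rose in BrM2 against Par by a log2 fold change of 3.09 (SE 0.53, adjusted p = 0.00486), and the value of 1.75 in LM2 missed the threshold (SE 0.56, adjusted p = 0.102). PCDH10 was highest in BrM2, and may have passed that filter through this line. PCDH17 had 24 counts in BrM2 (1, 10 and 13), 1 in Par and 0 in LM2, a ratio to Par of 27.4 with a 95% counting interval of 4.47 to 1130. PCDH12, which is expressed by endothelial cells, was at 1.53 ± 0.0621 CPM in Par, 1.49 ± 0.405 in LM2 and 0.757 ± 0.290 in BrM2, and its log2 fold change of -0.98 in BrM2 missed the threshold (SE 0.35, adjusted p = 0.112, edgeR with filterByExpr). The exons of PCDH12 overlap RNF14 on the opposite strand.

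Of the 5 cadherin-related genes only CDHR3 passed the main filter, and it was not called against Par. Of the 5 atypical genes 0 passed it, so that no call was possible for them. CDHR3, known as a receptor of rhinovirus C, was the highest of both groups, with 28, 59 and 68 counts in Par, 67, 66 and 90 in LM2, and 20, 35 and 43 in BrM2. The LM2 libraries were above those of BrM2, and the log2 fold change between them of -0.89 (SE 0.31, adjusted p = 0.135, edgeR) passed with the replicate block alone (adjusted p = 0.0216). The brush-border genes CDHR2 and CDHR5 were between 0.433 and 0.730 CPM in the means of all lines, and GPRIN1 overlaps CDHR2 exons on the opposite strand. CDH23, a cadherin of the hair cell tip link, had 9 or 10 counts in each Par library, 4 in each LM2 library and 5, 8 and 6 in BrM2. Its Par and LM2 libraries did not overlap in CPM, and it was too low for either filter to be tested. The atypical CDH13, or T-cadherin, was under the limit with 20 counts over all libraries.

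The clustered protocadherins lie on chromosome 5 in the order alpha, beta and gamma. STAR's counting leaves out reads that overlap several genes, so that the constant exons shared by the genes of the alpha and of the gamma cluster do not enter. Their counts come from exons of 1 gene alone, among them the variable first exon. In the gene models used, this sequence had 2636 bases for PCDHGB2, but 5752 for PCDHGA6 and 10557 for PCDHA4. For such genes the counts need not come from the first exon. The beta genes are single exons that resemble each other. Of the 50-base stretches of their transcripts, 12.4% to 49.1% occurred in another gene (49.1% for PCDHB8, 31.5% for PCDHB10, 24.2% for PCDHB13), so that their counts may be split or lost between paralogs. For the gamma genes described below the share was 0 for PCDHGC3, 1.57% for PCDHGA4, 11.4% for PCDHGB2 and 11.6% for PCDHGB1.

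The promoters of clustered protocadherins are known to share a short conserved element with the core CGCT. In the 250-base RefSeq windows, CGCT (AGCG on the other strand) was found in 50 of the 52 windows of the clusters (96.2%), against 64.8% of all windows. The windows of PCDHB2, which rose in both sub-populations, and of PCDHB13 and PCDHGB2, the highest beta and gamma genes per kilobase in Par and both lower in BrM2, are shown with this core in capitals. The PCDHGB2 window lies before a listed start inside the gene and reaches into it.
PCDHB2 (chr5:141094365-141094614, plus strand): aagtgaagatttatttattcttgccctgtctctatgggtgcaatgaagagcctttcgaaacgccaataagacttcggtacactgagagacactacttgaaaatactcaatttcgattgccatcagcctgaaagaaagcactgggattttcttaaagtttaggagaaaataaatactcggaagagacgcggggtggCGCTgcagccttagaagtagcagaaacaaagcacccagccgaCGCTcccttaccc
PCDHB13 (chr5:141213669-141213918, plus strand): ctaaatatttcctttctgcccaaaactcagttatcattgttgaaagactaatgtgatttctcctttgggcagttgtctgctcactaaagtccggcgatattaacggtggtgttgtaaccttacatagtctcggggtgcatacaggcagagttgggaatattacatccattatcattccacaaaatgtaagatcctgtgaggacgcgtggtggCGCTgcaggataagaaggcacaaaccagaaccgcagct
PCDHGB2 (chr5:141359886-141360135, plus strand): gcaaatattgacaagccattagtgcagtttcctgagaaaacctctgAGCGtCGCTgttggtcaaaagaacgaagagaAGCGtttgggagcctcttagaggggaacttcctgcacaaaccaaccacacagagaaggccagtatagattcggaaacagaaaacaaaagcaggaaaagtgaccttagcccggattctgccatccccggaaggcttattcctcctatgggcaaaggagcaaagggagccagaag
The windows held 2, 1 and 3 matches respectively, with 44.8%, 44.4% and 48.8% of G and C.

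The gamma cluster was lower in BrM2 and not in LM2. Its 22 genes together had 37.4 ± 2.75 CPM in Par, 44.3 ± 0.993 in LM2 and 16.2 ± 1.38 in BrM2, with no overlap between the lines. All 12 expressed gamma genes had a lower mean in BrM2 than in Par, and 11 of 12 a lower mean than in LM2. PCDHGB2, the highest, had 256, 269 and 370 counts in Par, 349, 360 and 321 in LM2, and 79, 116 and 103 in BrM2. It fell in BrM2 by 1.37 on the log2 scale against Par (SE 0.21, adjusted p = 0.00265, edgeR) and by 1.48 against LM2 (SE 0.21, adjusted p = 0.00283, edgeR). PCDHGC3, a C-type gene, which unlike the others is expressed without random choice, had 119, 96 and 96 counts in Par, 244, 169 and 177 in LM2, and 37, 33 and 38 in BrM2, so that each line stood apart in CPM. The difference between BrM2 and LM2 was -2.11 (SE 0.36, adjusted p = 0.00764, edgeR). Against Par, PCDHGC3 was at -1.30 in BrM2 (SE 0.36, adjusted p = 0.0444, edgeR) and at 0.81 in LM2 (SE 0.34, adjusted p = 0.22, edgeR), the latter called with the replicate block (adjusted p = 0.0056).

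PCDHGB1 and PCDHGA4 followed the same direction. PCDHGB1 had 108, 114 and 158 counts in Par, 189, 195 and 226 in LM2, and 43, 62 and 78 in BrM2, and the 3 lines did not overlap in CPM. Its log2 fold change was -0.85 in BrM2 against Par (SE 0.21, adjusted p = 0.0277, edgeR) and -1.43 against LM2 (SE 0.21, adjusted p = 0.00353, edgeR). The value of 0.58 in LM2 against Par was not called in edgeR (adjusted p = 0.137). It was called with the replicate block (adjusted p = 0.0182, edgeR) and with DESeq2 (adjusted p = 0.0317). PCDHGA4 had 60, 62 and 102 counts in Par, 42, 104 and 120 in LM2, and 13, 14 and 34 in BrM2, a log2 fold change of -1.66 in BrM2 against Par (SE 0.43, adjusted p = 0.0332, edgeR) and of -1.77 against LM2 (SE 0.43, adjusted p = 0.0367, edgeR). PCDHGA4 exceeded the filter's threshold in Par and LM2 only, and so could not be tested through BrM2. Several of the calls just given depended on single libraries. The BrM2 against Par calls of PCDHGC3, PCDHGB1 and PCDHGA4 were kept in 2, 1 and 3 of the 9 fits that left out 1 library each, with an adjusted p of up to 0.179, 0.124 and 0.11 in edgeR. PCDHGB1 kept the call only without LM2 replicate 1, PCDHGC3 only without LM2 replicate 1 or BrM2 replicate 1, and PCDHGA4 only without LM2 replicate 1, LM2 replicate 3 or BrM2 replicate 3. The call of PCDHGA4 against LM2 held only without LM2 replicate 1 or BrM2 replicate 3 (adjusted p otherwise 0.0577 to 0.129, edgeR).

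Of the remaining gamma genes, PCDHGA5 and PCDHGA6 were tested and not called. Their BrM2 to Par log2 fold changes were -0.83 (SE 0.66, adjusted p = 0.52) and -0.54 (SE 0.58, adjusted p = 0.663) in edgeR, with overlapping libraries. PCDHGA5 was called in BrM2 against LM2 with the replicate block (adjusted p = 0.0466), and had exceeded the filter's threshold in LM2 only. With filterByExpr, PCDHGA2 (14, 23 and 26 counts in Par, 3, 5 and 3 in BrM2) was at -2.26 in BrM2 against Par (SE 0.44, adjusted p = 0.00898, edgeR), and PCDHGA1 at -1.49 (SE 0.39, adjusted p = 0.0352, edgeR). PCDHGC5, under the limit of 50 counts, had 7, 8 and 7 counts in Par, 2, 4 and 4 in LM2, and 0, 0 and 1 in BrM2, a Par to BrM2 ratio of 19.3 with a 95% counting interval of 3.11 to 795.

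The beta cluster fell in BrM2 too, but not as a whole. Its 16 genes summed to 28.4 ± 4.32 CPM in Par, 20.8 ± 3.39 in LM2 and 10.7 ± 1.43 in BrM2. Of the 10 expressed beta genes, 8 had a lower mean in BrM2 than in Par. PCDHB13 had 178, 258 and 332 counts in Par, 98, 169 and 179 in LM2, and 20, 39 and 71 in BrM2, with 3 separate levels in CPM (11.6 ± 1.98, 6.19 ± 1.15 and 2.19 ± 1.04). It fell by 2.39 on the log2 scale in BrM2 against Par (SE 0.35, adjusted p = 0.00229, edgeR) and by 1.48 against LM2 (SE 0.34, adjusted p = 0.0308, edgeR). The latter call was lost without any of BrM2 replicates 1 and 2, LM2 replicates 2 and 3 and Par replicates 2 and 3 (adjusted p of 0.0539 to 0.113, edgeR). PCDHB14 had 67, 159 and 191 counts in Par, 35, 86 and 98 in LM2, and 21, 28 and 24 in BrM2, and fell in BrM2 by 2.26 (SE 0.41, adjusted p = 0.00694, edgeR). PCDHB11 had 85, 70 and 81 counts in Par, 42, 49 and 52 in LM2, and 17, 24 and 33 in BrM2, and fell by 1.5 (SE 0.26, adjusted p = 0.00579, edgeR). PCDHB11 exceeded the filter's threshold in Par only, and so had to be high there to be tested. PCDHB14 exceeded it in Par and LM2 only, and so could not be tested through BrM2. In LM2 against Par, PCDHB13 (-0.90), PCDHB14 (-1.05) and PCDHB11 (-0.86) were called with the replicate block (adjusted p = 0.0049, 0.0105 and 0.0149, edgeR). They were not called in edgeR without it (adjusted p = 0.152, 0.152 and 0.074), and DESeq2 called PCDHB11 alone of these (adjusted p = 0.0373). The value of PCDHB14 in BrM2 against LM2, -1.21, was called with the block (adjusted p = 0.0116, and 0.124 in edgeR without it) and without LM2 replicate 1 (adjusted p = 0.0451, edgeR). DESeq2 called it too (adjusted p = 0.046).

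PCDHB10 showed another pattern, in which LM2 did not fall. It had 36, 26 and 67 counts in Par, 49, 70 and 74 in LM2, and 10, 15 and 16 in BrM2. BrM2 was below both other lines, by 1.42 on the log2 scale against Par (SE 0.33, adjusted p = 0.0206, edgeR) and by 1.90 against LM2 (SE 0.32, adjusted p = 0.00739, edgeR). The call against Par was lost without any of BrM2 replicates 2 and 3 and Par replicates 1 and 3 (adjusted p of 0.0524 to 0.0885, edgeR). PCDHB10 exceeded the filter's threshold in Par and LM2 only, and so could not be tested through BrM2. PCDHB8 and PCDHB9, near it in the cluster, were also below LM2 in BrM2 with filterByExpr, by 2.03 (SE 0.39, adjusted p = 0.0111, edgeR) and 1.88 (SE 0.36, adjusted p = 0.0125, edgeR).

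At the other end of the beta cluster the order of the lines was turned. PCDHB2 had 3, 2 and 3 counts in Par, 16, 39 and 24 in LM2, and 26, 48 and 31 in BrM2, so that all Par libraries were below all others. With filterByExpr it rose by a log2 fold change of 3.12 in LM2 (SE 0.43, adjusted p = 0.0024, edgeR) and of 3.86 in BrM2 (SE 0.43, adjusted p = 0.00053, edgeR). Its Par counts were near 0, so that it had to be higher in another line to pass that filter. PCDHB2 shares 21.3% of its 50-base stretches with other genes. The genes PCDHB1 to PCDHB6, which come first in the cluster, together had 8, 7 and 6 counts in Par, 29, 52 and 37 in LM2, and 37, 80 and 59 in BrM2, or 0.331 ± 0.0924, 1.65 ± 0.399 and 3.02 ± 0.435 CPM, with no overlap. The 10 genes after them summed to 28.0 ± 4.40, 19.2 ± 3.18 and 7.68 ± 1.54 CPM, the reverse order of the lines. Of these, PCDHB11, PCDHB13 and PCDHB14 followed that order singly. PCDHB7 to PCDHB10 and PCDHB16 had their highest mean in LM2, and PCDHB12 had similar means in LM2 and BrM2. PCDHB15 was highest in BrM2 (0.413, 0.262 and 0.497 CPM in Par, LM2 and BrM2). The boundary after PCDHB6 was drawn after the values were seen and is a description without a test.

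The alpha cluster, which comes before the beta genes, had no expressed member, but its counts came mostly from BrM2. The 15 alpha genes together had 2, 1 and 1 counts in Par, 5, 4 and 2 in LM2, and 37, 34 and 43 in BrM2, or 0.0641 ± 0.0356, 0.162 ± 0.0857 and 2.09 ± 0.615 CPM. PCDHAC2 had 13, 4 and 12 counts in BrM2 and 0 in Par, at least 11.0-fold higher. PCDHA4 had 8, 4 and 11 and 0 counts in Par, at least 8.75-fold higher, and PCDHAC1 had 31 counts in BrM2 and 2 in Par, a ratio of 17.7 with a 95% counting interval of 4.5 to 153. Between 7 and 9 of the 15 alpha genes had a count in each BrM2 library, and 1 to 3 in each library of the other lines. Along chromosome 5, BrM2 was thus above Par in the summed CPM of the genes from the alpha genes to PCDHB6, and below Par from PCDHB7 through the gamma genes. The tested genes other than members within 5 Mb of PCDHB13, 61 in number, had a median log2 fold change of 0.14 in both LM2 and BrM2 against Par.

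**Figure D4:**
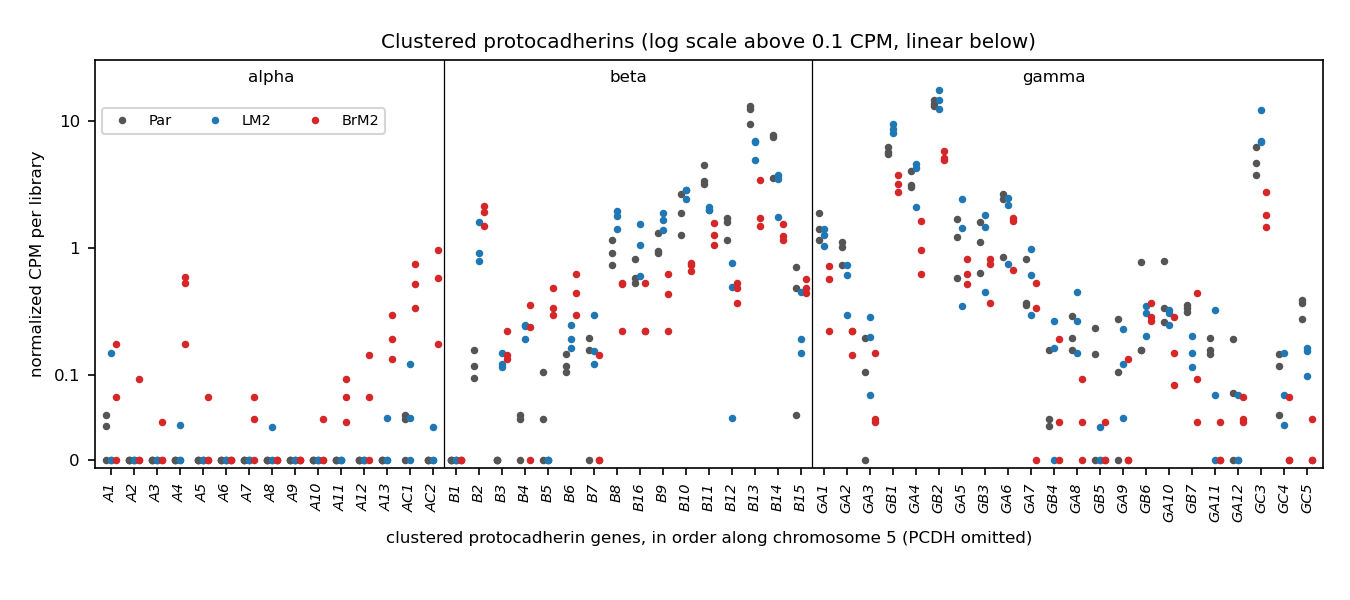
Normalized CPM of each clustered protocadherin gene (vertical axis, log scale above 0.1 CPM and linear below it) in each library, with genes in their order along chromosome 5 on the horizontal axis and 1 point per library, coloured by line. BrM2 points are the highest for most alpha genes and PCDHB2 and the lowest for most genes from PCDHB8 onward.

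Among the partners and relatives of the cadherins, FAT3, CELSR1 and ARVCF were called higher and CELSR2 lower in BrM2 than in Par. Of 13 catenins and linkers, 10 were tested, and ARVCF, a catenin of the p120 family, was called higher in BrM2 against Par (0.705 ± 0.101 CPM in Par, 1.94 ± 0.530 in BrM2, log2 fold change 1.44, SE 0.32, adjusted p = 0.0188, edgeR). ARVCF exceeded the filter's threshold in BrM2 only, and so had to be high there to be tested. In the other comparisons 0 catenins were called in edgeR, beside 2 (LM2 against Par) and 4 (BrM2 against LM2) at an unadjusted p under 0.05 and 2 in each by DESeq2. Beta-catenin (CTNNB1) was at 693 ± 42.2 CPM in Par, 733 ± 31.3 in LM2 and 534 ± 33.8 in BrM2. Its differences in BrM2 were called with the replicate block (adjusted p = 0.0142 against Par and 0.00639 against LM2) and not in edgeR without it (adjusted p = 0.146 and 0.107). Of 5 tested desmosomal genes of 11, PKP2 was higher in BrM2 than in LM2 (log2 fold change 1.18, SE 0.22, adjusted p = 0.0118, edgeR). Among 9 tested of 13 other superfamily members, FAT3, a giant atypical cadherin of neurons, had 6.15 ± 1.60 CPM in Par, 4.77 ± 0.178 in LM2 and 69.9 ± 2.53 in BrM2, and rose in BrM2 by a log2 fold change of 3.50 (SE 0.23, adjusted p = 6.41e-05, edgeR). CELSR1 rose in LM2 (1.25, SE 0.28, adjusted p = 0.0252, edgeR) and in BrM2 (1.40, SE 0.28, adjusted p = 0.011, edgeR), and CELSR2 fell in BrM2 by 1.31 (SE 0.28, adjusted p = 0.0135, edgeR). These are planar cell polarity cadherins. With the replicate block, which called 34.5%, 42.7% and 37.5% of all tested genes in LM2 against Par, BrM2 against Par and BrM2 against LM2, the calls in these lists were as follows. Of the 10 catenins and linkers, 0 were called higher and 3 lower in LM2 against Par, 2 and 4 in BrM2 against Par, and 3 and 2 in BrM2 against LM2. Of the 5 desmosomal genes the counts were 1 and 1, 2 and 1, and 1 and 2, and of the 9 other superfamily members 2 and 2, 2 and 2, and 1 and 2. CELSR2 in LM2, at -0.87 (SE 0.27, adjusted p = 0.092, edgeR), was called with the block (adjusted p = 0.000556).

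Of 9 repressors of CDH1, including SNAI1, SNAI2, ZEB1 and ZEB2, 6 were tested and 0 were called in any comparison in edgeR without the block, beside 2, 0 and 1 at an unadjusted p under 0.05 and 1, 0 and 1 called by DESeq2 in LM2 against Par, BrM2 against Par and BrM2 against LM2. With the block, 2 were called higher in LM2 against Par, 1 lower in BrM2 against Par, and 4 lower in BrM2 against LM2, beside 34.5%, 42.7% and 37.5% of all tested genes. All 14 regulators of the clustered protocadherins were tested. DNMT3B, the methyltransferase that methylates their promoters, was at 12.7 ± 0.949 CPM in Par, 18.7 ± 2.39 in LM2 and 31.3 ± 2.56 in BrM2, and was higher in BrM2 than in Par (log2 fold change 1.30, SE 0.19, adjusted p = 0.00217, edgeR) and than in LM2 (0.74, SE 0.18, adjusted p = 0.0412, edgeR). In LM2 against Par it was at 0.55 (SE 0.18, adjusted p = 0.118, edgeR) and was called with the block (adjusted p = 0.00898). The cohesin subunit SMC1A was at 486 ± 57.8, 615 ± 91.1 and 263 ± 69.4 CPM and fell in BrM2 by 0.88 against Par (SE 0.23, adjusted p = 0.038, edgeR) and by 1.23 against LM2 (SE 0.24, adjusted p = 0.0135, edgeR). CTCF was at 82.2 ± 6.16, 98.3 ± 9.20 and 103 ± 11.8 CPM. In BrM2 against Par it was called with the replicate block (adjusted p = 0.0263) and not in edgeR without it (adjusted p = 0.28). Of the 14, the block called 3 higher and 1 lower in LM2 against Par, 3 and 2 in BrM2 against Par, and 2 and 5 in BrM2 against LM2. The median log2 fold change of the 14 was 0.26 in LM2 and 0.01 in BrM2 against Par, beside 0.01 and -0.02 over all tested genes, and the part of any of them in the protocadherin values was not tested.

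Of the 65 members under the limit, 13 had 0 counts in every library, which allows up to 3 counts over the libraries of a line, or 0.0459 CPM in Par, 0.0423 in LM2 and 0.0524 in BrM2 for counting error only, and 52 had between 1 and 49 counts in all. The 11 pseudogenes summed to at most 10 counts in any library.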

How the data were processed

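RNA-seq libraries of Par, LM2 and BrM2 (3 replicates each) were made by the authors with a stranded mRNA kit, sequenced as paired ends, aligned to hg38 and counted per gene with STAR 2.7.0, as given in the study's methods and the submitters' processing notes. The deposited values are raw counts per gene, with no normalization, and the strand that was counted is not given in the sources used here. The authors also deposited 4 columns of log2 fold changes and adjusted p-values of their own DESeq2 comparisons, which were not used. Of 58887 rows, 3 repeated an identifier with the same counts and were dropped.

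Genes were kept where a normalized count exceeded 47.15, a threshold chosen as in HTSFilter from 100 values between 1 and 200 by the smoothed Jaccard index of replicates (span 0.3, largest index 0.943). The filter was rewritten here after HTSFilter. The 13055 genes kept were tested in edgeR 4.0.16 (R 4.3.3) with TMM factors, all 9 libraries, the 3 lines as groups, 2-sided quasi-likelihood tests and Benjamini-Hochberg adjustment, at 0.05. Alternatives were the replicate number as a block, RLE factors, DESeq2 1.42.0, no filter, filterByExpr, only the 6 libraries compared, and leaving out libraries. The replicate numbers come from the sample titles. The deviations from the line means correlated in all 9 pairs of the same number (r = 0.23 to 0.90, beside -0.88 to 0.80 between different numbers). The numbers were left out of the main test and used as a block in an alternative. As a block they lowered the common dispersion from 0.11 to 0.0207. The fits were tried on simulated LM2 and Par data (13055 genes, 200 changed by 1 or by 2 on the log2 scale). Without a replicate effect, edgeR recovered 85% and 99% of these changes, and 83.5% and 99% with the block. With a replicate effect, it recovered 0% and 63.5%, and 85.5% and 99.5% with the block, which called 15 and 11 unchanged genes. That effect was made the same in every line, and the simulated spread came from the design with the block. The setting thus favoured the block by construction, and cannot show how well the block suits the real libraries.

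Counting intervals are exact 95% intervals of a ratio of summed counts. Folds against a line at 0 used a floor of 3 counts over that line. Positions, neighbours within 5 Mb (92.9% of tested genes had a position) and promoter windows came from RefSeq (GRCh38.p14), and exon lengths, overlaps and shared 50-base stretches from GENCODE v44 models on GRCh37, without coordinates. An overlapping gene was listed where its mean count was at least 10. Python 3.11.15, pandas 2.3.3, numpy 2.4.6, scipy 1.17.1 and matplotlib 3.10.9 were used.

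The members, gene lists and tests were chosen with earlier results of these data known. Named by rule were the expressed members called in any comparison with or without the block, the 10 highest, and CDH1, CDH2, CDH3, CDH5 and CDH11, and from the other gene lists those called. Every other gene named with values, such as CDH12, PCDHB2, PCDH10, the alpha genes, CTNNB1 and CTCF, was chosen after its values were seen.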

Additional observations from a re-analysis of the deposited data

Results flagged for a closer look

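For 10 members the change from Par differed between LM2 and BrM2, since the direct comparison of BrM2 with LM2 passed an adjusted p of 0.05 in edgeR. The log2 fold change of BrM2 against LM2 was positive for CDH18 (5.82) and CDH11 (2.07). It was negative for CDH3 (-3.26), PCDHGC3 (-2.11), PCDHB10 (-1.90), PCDHGA4 (-1.77), PCDH7 (-1.58), PCDHB13 (-1.48), PCDHGB2 (-1.48) and PCDHGB1 (-1.43). CDH3, PCDHGC3, PCDHB10, PCDHGA4, PCDHGB2, PCDHGB1 and PCDH7 had fitted changes of opposite sign in LM2 and in BrM2 against Par. In edgeR without the block, CDH3 and PCDH7 were called against Par in LM2 only, and the other genes just named in BrM2 only. The opposite sign thus rests on an uncalled value, such as 0.11 for PCDHGB2 in LM2 (SE 0.20, adjusted p = 0.859, edgeR). With the block, PCDHGC3 and PCDHGB1 were called in both comparisons. CDH18, CDH11 and PCDHB13 had fitted changes of the same sign in both, of which 1 each passed against Par: CDH18 and PCDHB13 in BrM2 (adjusted p in LM2 of 0.0717 and 0.152, edgeR) and CDH11 in LM2 (adjusted p in BrM2 of 0.0534, edgeR). The calls of PCDHB13 and PCDHGA4 were the 2 that leaving out 1 library could end. CDH18 and CDH3 had exceeded the filter's threshold in 1 line only, BrM2 and LM2 respectively, and so had to differ to be tested. PCDHB10 and PCDHGA4 had exceeded it in Par and LM2 only, and so could not be tested through BrM2.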

How the results depend on the processing

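Of the 26 calls of members over the 3 comparisons, 0 reversed under any alternative. All 26 were kept with the replicate block, with DESeq2 and without replicate 1 of every line. RLE factors, filterByExpr and no filter lost 1 call each, and fits of only the 6 libraries compared lost 4, namely PCDHGC3 and PCDHGB1 in BrM2 against Par and PCDHB13 and PCDHGA4 in BrM2 against LM2. Leaving out 1 library lost 1 to 8 calls, whereas leaving out replicate 2 of every line lost 24 and replicate 3 of every line 20. With libraries left out, the number of members called was 1 to 11 in LM2 against Par, 1 to 14 in BrM2 against Par and 0 to 13 in BrM2 against LM2. The count of 0, from edgeR without replicate 2, stood beside 10 members at an unadjusted p under 0.05.

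Counts moved by over 1.5 times as follows. In LM2 against Par, 14 members were called with the replicate block, 9 with DESeq2, 8 with no filter and 19 with no filter and the block. In BrM2 against Par, no filter gave 22 (10 higher, 12 lower) and no filter with the block 32. In BrM2 against LM2 these settings gave 19 and 28. No filter with the block was chosen after seeing the data. Without a filter 92 members were tested in place of 20, and the cause of the other moves was not tested. The replicate block changed no other count of members called by over 1.5 times, whereas over all tested genes it raised the calls from 1134 to 4510, 1733 to 5577 and 1057 to 4896 in the 3 comparisons. RLE factors shifted the median of all tested genes by under 0.1 on the log2 scale. At 3 counts over a line, or 0.0423 to 0.0524 CPM, presence could not be judged.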
